A study of Mus musculus with 6 samples.

Results

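The genes described here are 10 genes of the smooth muscle contractile apparatus, Acta2, Actg2, Myh11, Mylk, Tagln, Cnn1, Smtn, Lmod1, Des and Myocd. They were chosen by symbol, and they are 10 of the 53647 genes in the files. Each symbol named 1 row of the count tables. Single cell RNA sequencing libraries of proximal pulmonary arteries (PAs) from 6 wild-type C57BL/6J mice were used, 2 young (3 months) and 4 old (20, 24, 27 and 28 months), with 1 library per mouse and no treatment. The old animals of 20, 24 and 27 months were given as males and that of 28 months as a female, and the second young library is marked female. The arteries were cut out together with surrounding tissue and digested with collagenase and elastase, and the cells were captured in droplets that tag each RNA molecule at its 3′ end with a unique molecular identifier (UMI). The question asked of the genes is how their levels in smooth muscle cells (SMCs) compare between old and young arteries and whether they are counted in other cells of the same preparations.

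SMCs of the arterial media contract when calcium activates myosin light chain kinase, the product of Mylk, which phosphorylates the light chains of smooth muscle myosin. The heavy chain of that myosin is encoded by Myh11, and it pulls on filaments of the actins encoded by Acta2, the vascular form, and Actg2, a form best known from the gut and other visceral muscle. Calponin (Cnn1), transgelin (Tagln, also called SM22), smoothelin (Smtn) and leiomodin (Lmod1) associate with these actin filaments, and desmin (Des) forms the intermediate filaments that tie the apparatus together. Myocardin (Myocd) is a coactivator that turns on this group of genes together with serum response factor (Srf), which binds a short promoter element named the CArG box. The programme is known to be partly switched off when SMCs leave the contractile state.

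The CArG box was searched for because it is the element through which the group is best known to be controlled. It consists of 2 C, then 6 letters that are each A or T, then 2 G, so that a box on one strand is also a box on the other. The windows searched ran from 250 bases upstream to 50 bases downstream of gene starts in RefSeq (GRCm38.p6). They were held for 6 of the 10 genes, Des, Lmod1, Cnn1, Smtn, Mylk and Acta2. No exact box lay in these 6 windows. Acta2 was the only one of the 6 to hold a box with 1 changed letter, and it held 2 of them. Of all 32851 windows 1.63% held an exact box and 9.98% an exact box or one with 1 change. For comparison, 7 of 27 partner genes of the contractile programme with a window held an exact box. This count is per gene and not per window, as the 27 genes had 38 windows and the 6 contractile genes 6. Boxes outside the windows were not searched for. The Acta2 boxes are printed with boxes of Myl9, the regulatory light chain of smooth muscle myosin, of Srf itself and of the cytoplasmic actin Actg1. Capitals mark the box, and each run of 30 bases reads 5′ to 3′ on the strand of the gene.
Acta2, 84 bases upstream (chr19:34255438-34255467, minus strand, 1 change): gtgctgaggtCCCTATATGGttgtgttaga
Acta2, 34 bases upstream (chr19:34255388-34255417, minus strand, 1 change): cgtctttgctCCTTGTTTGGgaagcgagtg
Myl9, 161 bases upstream (chr2:156775293-156775322, plus strand, exact): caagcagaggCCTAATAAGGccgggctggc
Srf, 82 bases upstream (chr17:46556225-46556254, minus strand, exact): ctggggctcgCCATATAAGGagcggcctcg
Actg1, 90 bases upstream (chr11:120348566-120348595, minus strand, exact): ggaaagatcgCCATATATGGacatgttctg

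SMC-like cells were clustered without the 10 genes and named without the gene described. The choice of which clusters to cluster again, those with 40% or more of the 10 genes raised, left no gene out. Barcodes that held 500 UMIs and 300 genes or more, with no more than 20% of UMIs mitochondrial, were clustered with all 10 genes left out, and clusters were then named by the contractile genes other than the one described. Leaving out each gene in turn gave 1 and the same set of 3527 cells among 15321. Its 30 clusters all had the 10 genes raised. The cells were spread very unevenly. The young libraries gave 25 and 35 SMC-like cells, the libraries of 20, 27 and 28 months gave 157, 2347 and 957, and the library of 24 months gave 6, of which 5 held no UMI of any of the 10 genes. The 24-month library was therefore left out of the SMC values given here. Most of the young cells, 53 of 60, sat in 1 cluster of 58 cells in which 7 of 7 cardiac muscle markers were also raised and 10 cells had no contractile UMI, whereas no other SMC-like cluster had more than 3 of the cardiac markers raised.

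The libraries fell into 2 sets that do not follow age alone. Median UMIs per SMC-like cell were 788 and 635 in the young libraries against 3066, 9351 and 6627 at 20, 27 and 28 months, and total UMIs per library ran from 6355125 to 50436562. Both young libraries and the 24-month library also shared barcodes with each other, 131 to 215 per pair, while no other pair shared more than 4, and at most 4 of the barcodes shared by any pair were SMC-like in either library. In SMC-like cells age and this set of libraries cannot be told apart. The 20-month library, of an animal given as male, held 2411 UMIs of Xist, an RNA of female cells, against 48 in the male of 27 months. It is called by its age here.

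Within SMC-like cells the old libraries did not move together. The library of 20 months had the highest levels of Acta2 and Tagln and the lowest of Myh11, Mylk, Cnn1 and Myocd among the 5 libraries. The libraries of 27 and 28 months had the highest levels of Myh11, Mylk, Lmod1 and Myocd. Levels are given as counts scaled to 1000000 UMIs (CPM) of the SMC-like cells of a library, and they are compared between libraries for 1 gene at a time.

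Acta2 was counted at 13154 and 13486 CPM in the young libraries and at 25166, 11922 and 13563 CPM at 20, 27 and 28 months. The 20-month library stood alone, and the other old libraries lay on both sides of the young ones. Actg2 was at 309 and 292 CPM in the young libraries, each from 7 counts, and at 517, 547 and 542 CPM in the old ones. All 3 old libraries were above both young ones, although the 95% counting intervals of the young values, 124 to 637 and 118 to 602 CPM, reached beyond the old levels. Myh11 was at 1854 and 2964 CPM in the young libraries and at 1685, 5328 and 5758 CPM in the old ones, so the old libraries lay on both sides of the young. For Mylk, too, the 20-month library was below both young ones and the other old libraries above them, at 1059 and 835 CPM in the young and at 441, 1571 and 1241 CPM in the old libraries.

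The genes whose proteins associate with actin filaments differed among themselves. Tagln resembled Acta2, with 9446 and 9895 CPM in the young libraries, 17219 CPM at 20 months and only 5942 and 7600 CPM at 27 and 28 months. Cnn1 varied little, at 1059 and 793 CPM in the young and 734, 1030 and 1194 CPM in the old libraries. Smtn also overlapped between the groups, at 795 and 585 CPM against 617, 799 and 539 CPM. Lmod1, whose protein starts and lengthens actin filaments, was at 265 and 251 CPM in the young libraries, each from 6 counts, and at 344, 642 and 915 CPM in the old ones. All 3 old libraries lay above the young pair, although the 95% counting intervals of the young values, 97.2 to 576 and 91.9 to 545 CPM, included the 20-month level.

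Des was the least certain of the 10. It gave 1 count (44.1 CPM) in the first young library and 8 counts (334 CPM) in the second, against 445, 216 and 221 CPM in the old libraries. The counting interval of the first, 1.12 to 246 CPM, reached the 2 lower old libraries. Myocd was at 221 and 292 CPM in the young libraries, from 5 and 7 counts, and at 166, 919 and 646 CPM in the old ones. The 20-month library was below both young ones and the libraries of 27 and 28 months were above them.

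**Figure D1:**
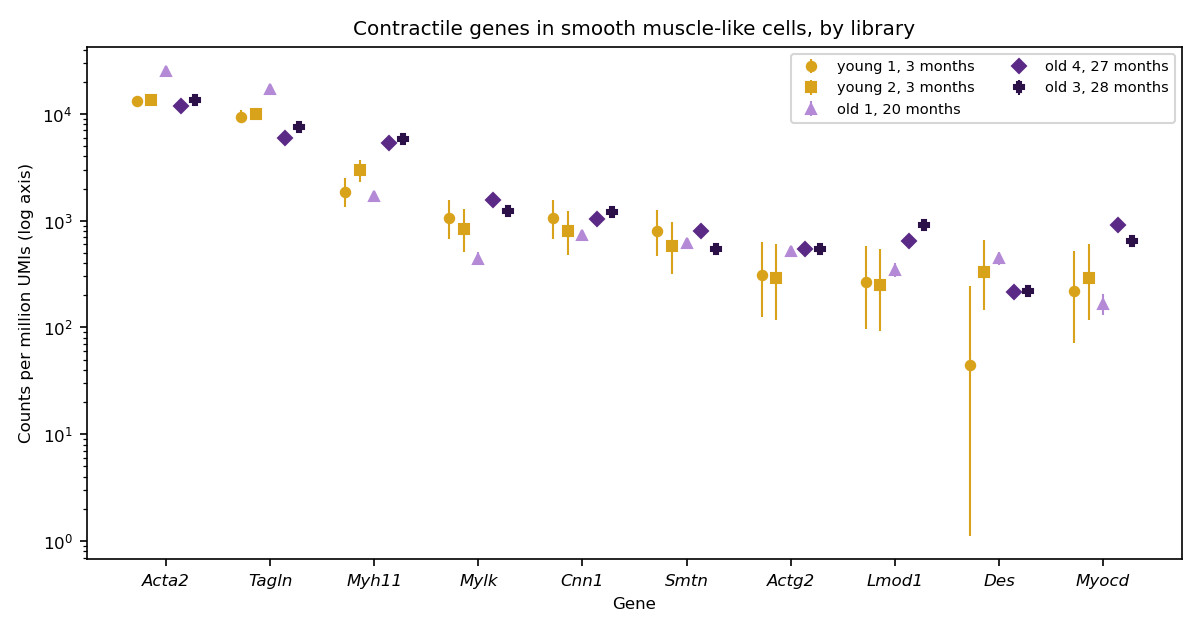
Levels of the 10 contractile genes in SMC-like cells, in CPM on a log axis, with 1 point per library (young in gold, old in purple) and bars for the 95% counting interval. The 20-month library (triangles) is highest for Acta2 and Tagln, at 25166 and 17219 CPM, and below the libraries of 27 and 28 months for Myh11, Mylk, Lmod1 and Myocd.

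None of the 10 genes passed the test between old and young SMC-like cells. Counts were summed per library and compared with edgeR's quasi-likelihood test over 6901 genes, with the threshold at an adjusted p of 0.05. The test called 0 of the 10 genes, beside 0% of all genes tested. At an unadjusted p under 0.05 it held 1 of the 10 (Lmod1) and 555 of all genes, and DESeq2 called 2 genes, of which 0 were contractile. All 10 log2 differences, old minus young, were positive, with a median of 0.90, while the median of all genes tested was 0.50, and 8 of the 10 were above that median. All 10 genes had a young count, and among the 5838 genes tested that had one the median was 0.31, with 9 of the 10 above it. The median of all genes was 0.11 with scaling by library size alone, so the sign of a small difference depends on the scaling. Over the 6901 genes, 22.6% (1559 genes) had old levels in CPM all above the young ones and 11.8% all below. The 1559 include 1063 genes without a young count, which could pass the filter only through the 3 old libraries and so were above by construction. The 22.6% thus overstates the share among genes with a young count, as the 10 contractile genes are. Of the contractile genes, 2 of 10 (Actg2 and Lmod1) were all above and 0 all below.

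Lmod1 had the largest difference, 1.63 ± 0.67 (SE, log2, n = 2 young and 3 old libraries; edgeR, adjusted p = 0.604), which is 1.13 above the median of all genes, with mean levels of 258 ± 10.1 CPM (SD) in the young and 634 ± 285 CPM in the old libraries. Myocd followed at 1.47 ± 0.75 (edgeR adjusted p = 0.611), with 256 ± 50.6 CPM in the young and 577 ± 381 CPM in the old. Differences of 1.21 ± 0.62 for Actg2, 1.13 ± 0.67 for Myh11 and 1.03 ± 0.79 for Des were next, although that of Des was 0.23 without the first young library and 3.24 without the second. Those of Acta2 (0.77 ± 0.68), Tagln (0.53 ± 0.70) and Mylk (0.52 ± 0.64) were close to the median of all genes, and those of Cnn1 (0.45 ± 0.59) and Smtn (0.30 ± 0.59) were below it, that of Cnn1 not below the 0.31 of genes with a young count. The 95% intervals were wide, from 0.22 to 3.04 for Lmod1 and from -0.66 to 2.21 for Acta2, and all but that of Lmod1 included 0.

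One library decided these calls. Without the 20-month library, Myh11 rose by 1.48 (edgeR adjusted p = 0.0365), Lmod1 by 1.89 (adjusted p = 0.0435) and Myocd by 1.89 (adjusted p = 0.0446) on the log2 scale, among 54 genes called in all. The 54 were out of no more than the 6901 genes tested with all 5 libraries. Over all alternatives the adjusted p of these 3 genes reached 0.994. In the same fit Tagln turned to -0.23 and Acta2 was at 0.22. That comparison sets 2 libraries of low depth against the 2 deepest ones.

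**Figure D2:**
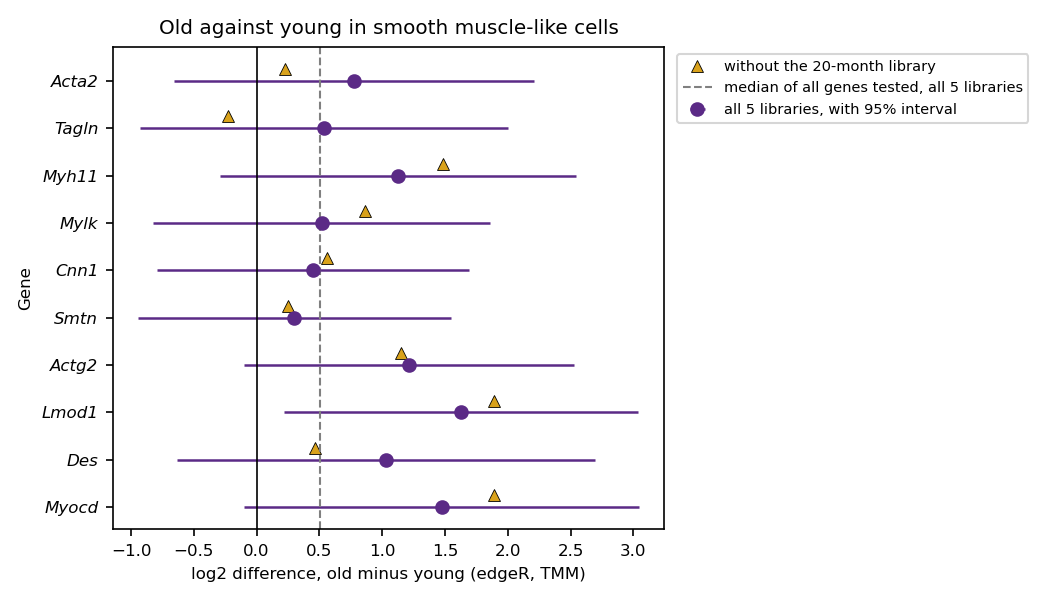
log2 difference between old and young SMC-like cells for each contractile gene (edgeR, TMM scaling), as points with 95% intervals from all 5 libraries, with triangles for the fit without the 20-month library and a dashed line at the median of all genes tested (0.50). Without that library Myh11, Lmod1, Myocd, Mylk and Cnn1 move up and the other 5 genes move down.

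Depth per cell moved with these differences, so the libraries of 27 and 28 months were split at 2000 UMIs. All young SMC-like cells and 145 and 88 of the cells at 27 and 28 months were at or below it. In these shallow cells Myh11 was at 4352 and 4693 CPM, still above the 1854 and 2964 CPM of the young libraries, and Lmod1 was at 479 and 725 CPM against 265 and 251 CPM. Myocd, in contrast, was at 534 and 284 CPM in the shallow cells against 921 and 652 CPM in the deeper cells of the same libraries, and the 284 CPM of the 28-month library lay between the young values. Tagln in the shallow cells, at 4598 and 6026 CPM, was below both young libraries. With only cells of at most 2000 UMIs in every library, 7 of the 10 differences were positive, with 1.15 for Lmod1, 0.75 for Actg2, 0.68 for Myh11 and 0.48 for Myocd. Those of Tagln (-0.21), Smtn (-0.16) and Mylk (-0.023) were negative. The 20-month library entered this fit with 27 cells. The median of all genes is not given for it, so these signs lack that reference.

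Clusters within a library differed more for some of the genes than for others. Among the 11 SMC-like clusters of at least 30 cells at 27 months, Des ran from 50.8 to 456 CPM, an 8.97-fold range, and Myocd from 215 to 1027 CPM. Smtn had the narrowest range there, 742 to 906 CPM (1.22-fold). At 28 months, with 7 such clusters, Myocd ran from 78.7 to 758 CPM (9.63-fold) and Myh11 from 5179 to 6098 CPM (1.18-fold). No counting interval was computed for single clusters, so the low ends of the wide ranges may rest on few counts. The 3 clusters at 20 months all had low Myh11, 1530 to 1846 CPM, below the lowest cluster at 27 and 28 months (3946 CPM), and high Acta2, 20300 to 27983 CPM, above the highest cluster at 27 and 28 months (18417 CPM). The clusters were formed without the 10 genes, from other genes of the same cells.

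Ratios between the genes within a library do not depend on its scaling. Acta2 counts outnumbered Myh11 counts 7.10-fold and 4.55-fold in the young libraries, 14.9-fold at 20 months and 2.24-fold and 2.36-fold at 27 and 28 months, so the young libraries lay between the old ones. For Acta2 against Actg2, the vascular against the visceral actin, the ratios were 42.6 and 46.1 in the young libraries, 48.7 at 20 months and 21.8 and 25.0 at 27 and 28 months. Cnn1 per Acta2 was 0.0805 and 0.0588 in the young libraries and 0.0864 and 0.0880 at 27 and 28 months, with the lowest value, 0.0292, at 20 months. Des per Acta2 was 0.00336 and 0.0248 in the young libraries, the first from 1 Des count, and 0.0177, 0.0181 and 0.0163 in the old ones.

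None of these 4 ratios differed beyond the spread of the libraries. The log2 differences, old minus young, were -0.57 for Acta2 to Actg2 (two-sided exact permutation test, p = 0.6), -0.41 for Acta2 to Myh11 (exact p = 1.0), 0.93 for Des to Acta2 (exact p = 0.8) and -0.19 for Cnn1 to Acta2 (exact p = 1.0). All 4 adjusted p-values of the exact test were 1.0. With 2 against 3 libraries the smallest p this test can give is 0.2.

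**Figure D3:**
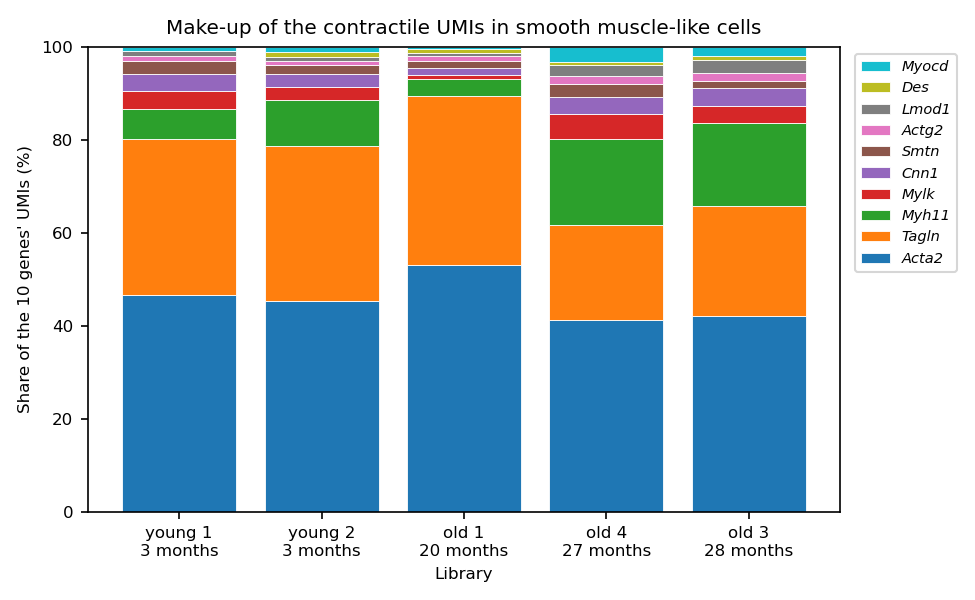
Share of each contractile gene in the summed UMIs of the 10 genes in SMC-like cells, as stacked bars in percent with 1 bar per library. Myh11 makes up 3.56% at 20 months, 6.57% and 9.97% in the young libraries and 18.4% and 17.9% at 27 and 28 months, and Tagln makes up 36.4% at 20 months against 20.5% and 23.6% at 27 and 28 months.

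The 10 genes together took a similar share of the RNA of SMC-like cells in 4 libraries, 2.82% and 2.97% of UMIs in the young and 2.89% and 3.22% at 27 and 28 months. The 20-month library stood above them at 4.73%. Markers of some other cells moved with the libraries as well. The 7 fibroblast markers varied less, with sums of 1879 to 2564 CPM in SMC-like cells, and the 8 endothelial markers stayed low, at 0 to 65.6 CPM. Of the fibroblast markers, Lum, Pdgfra and Dpt had no count in either young library, where 3 counts are 132 and 125 CPM. All 7 had a count at 20, 27 and 28 months. The 7 cardiac muscle markers summed to 6710 CPM in SMC-like cells of the first young library, where all 7 had a count, and to 304 to 703 CPM in the other 4. The 8 airway epithelial markers, Scgb1a1 among them, summed to 2881 CPM in the second young library and 47.0 to 618 CPM in the others. Pericyte markers (6 genes) summed to 376 to 1164 CPM with Higd1b at 0 in both young libraries and at 27 months. Kcnj8 was also at 0 in both young libraries. Airway smooth muscle markers (4 genes) summed to 98.4 to 486 CPM with Hhip and Chrm2 at 0 in all but the 27-month library. In both young libraries Chrm3 was at 0 too, so that their sums came from Lgr6 alone. The part of all these markers in the levels of the contractile genes was not tested.

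The share of SMC-like cells with a UMI of each gene was compared after thinning every cell to 500 UMIs. Acta2 was then detected in 80.0% and 82.9% of young cells and in 87.9%, 98.2% and 97.6% of cells at 20, 27 and 28 months, and Tagln in 80.0% and 82.9% against 86.6%, 91.3% and 91.8%. For both genes the share in each old library was above that of the young ones. The exact binomial 95% intervals of the young Acta2 shares, 59.3 to 93.2% and 66.4 to 93.4%, included the 20-month share. Those of Tagln, with the same limits, included every old share. Of the young cells, 5 of 25 and 6 of 35 held no contractile UMI, and every other young cell had both Acta2 and Tagln. At 20, 27 and 28 months 11 of 157, 4 of 2347 and 6 of 957 cells held none. Myh11 was detected in 52.0% and 71.4% of young cells, 51.0% at 20 months and 90.3% and 92.7% at 27 and 28 months. Mylk was detected in 32.0% and 34.3% of young cells, 14.0% at 20 months and 52.3% and 43.8% at 27 and 28 months, so that both young libraries lay between that of 20 months and the other old ones, as in its levels. Myocd was found in 8.0% and 14.3% of young cells and 7.01%, 31.1% and 26.1% of old cells, with exact binomial 95% intervals of 0.984 to 26.0% and 4.81 to 30.3% for the young values. Des was found in 4.0% to 17.2% of cells. Without thinning, the range over libraries was 80.0% to 99.5% for Acta2 and 17.1% to 90.2% for Myocd. As a background, airway epithelial-like cells had Acta2 in 0% to 20.3% of thinned cells (0% to 64.1% unthinned) and Des in 0%, at median depths of 1219 to 10163 UMIs against 635 to 9351 UMIs in SMC-like cells.

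Other genes of the contractile programme did not pass the test either. Of 30 partner genes (actin-binding proteins, tropomyosins, light chains, Srf and its other coactivators among them), all 30 were tested, 0 rose and 0 fell. Their differences were positive for 27 genes. Among the 28 with a count in a young library 25 were positive and the median was 0.57, where that of all genes tested with a young count was 0.31. Tpm2, a tropomyosin of smooth muscle, was at 2781 and 3048 CPM in the young and 4323, 3096 and 3337 CPM in the old libraries, a difference of 0.70 ± 0.62. Myl9, the light chain that Mylk phosphorylates, was at 3973 and 3424 CPM against 5026, 3209 and 3016 CPM (0.44 ± 0.63), with its highest level at 20 months like Acta2. Csrp1, an actin-associated LIM protein, was at 1192 and 877 CPM against 1425, 1607 and 1494 CPM (0.93 ± 0.60). Myl6, an alkali light chain shared with non-muscle myosin, and Pdlim7 were lower in all old libraries than in both young ones, with differences of -0.19 ± 0.61 and -0.56 ± 0.57. Srf and Mrtfa had no count in either young library and 18.3 to 32.8 CPM and 47.1 to 68.4 CPM in the old ones. Those levels lie under the floor of 3 counts in each young library, 132 and 125 CPM, so no fold is given.

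Genes often raised when SMCs lose contractile character were listed too. Of 13 genes, 9 were tested, with 0 called, 7 positive differences and 2 negative ones. Detection in 3 libraries was needed, so no gene could be tested through the young libraries alone. Of the genes not tested, Klf5 and Ly6a were lower in all old libraries than in both young ones. Col8a1 was higher in all old libraries, and Spp1 overlapped. The young levels of these genes were at or under the floor of 3 counts, and the signs counted here leave them out. At an unadjusted edgeR p under 0.05 were 3 of the 9, beside 555 of the 6901 genes. The 3 were Vim, Vcan and Tnfrsf11b. Of these, Tnfrsf11b had no young count and could pass the filter only through the old libraries. Among the 8 tested genes of this list with a young count 6 were positive. Their median was 1.16, where that of all genes tested with a young count was 0.31. Vim, vimentin, was at 1810 and 2505 CPM in the young libraries and at 3187, 4825 and 4757 CPM in the old ones (1.33 ± 0.63). Vcan, the matrix proteoglycan versican, was at 44.1 and 41.8 CPM in the young libraries, from 1 count each, and at 55.3, 299 and 201 CPM in the old ones. Tpm4, a non-muscle tropomyosin, was at 88.3 and 83.5 CPM, from 2 counts each, against 146, 208 and 173 CPM (1.40 ± 0.73). Fn1, fibronectin, was lower in every old library, at 883 and 459 CPM in the young and 170, 297 and 269 CPM in the old (-1.09 ± 0.57). Tnfrsf11b, osteoprotegerin, had no young count. The cytoplasmic actins went apart. Actb was at 13463 and 6388 CPM in the young libraries and at 5755, 4778 and 4453 CPM in the old ones, lower in all of them (-0.58 ± 0.62), while Actg1 overlapped at 750 and 1086 CPM against 941, 1080 and 705 CPM.

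Outside SMC-like cells the 10 genes were low but not uniformly so. For 9 of the genes the lowest SMC library was above every library of every other type compared. Pericytes, cardiac and skeletal muscle and unnamed cells were not among the types compared. For Des the lowest SMC library (44.1 CPM, 1 count) was below mesothelial-like cells of both young libraries, at 53.2 and 218 CPM, the latter from 2 counts. With types in the order of their median over libraries, SMC-like cells came first for all 10. Next in that order were erythroid-like cells for 9 of the genes, but only through the library of 28 months, where 137 such cells held 2398 CPM of Acta2 and 1034 CPM of Myh11, while the 29 erythroid-like cells at 24 months held none. Free RNA, taken from barcodes of 1 to 100 UMIs, held the 10 genes in every library, at 0.0267% to 0.0423% of its UMIs in both young libraries and at 24 months and at 0.377% to 0.560% in the other 3. Acta2 was at 0 to 2.72 CPM in B-like cells of the young and 24-month libraries and at 674 and 96.5 CPM at 27 and 28 months, where free RNA held 2642 and 1693 CPM.

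**Figure D4:**
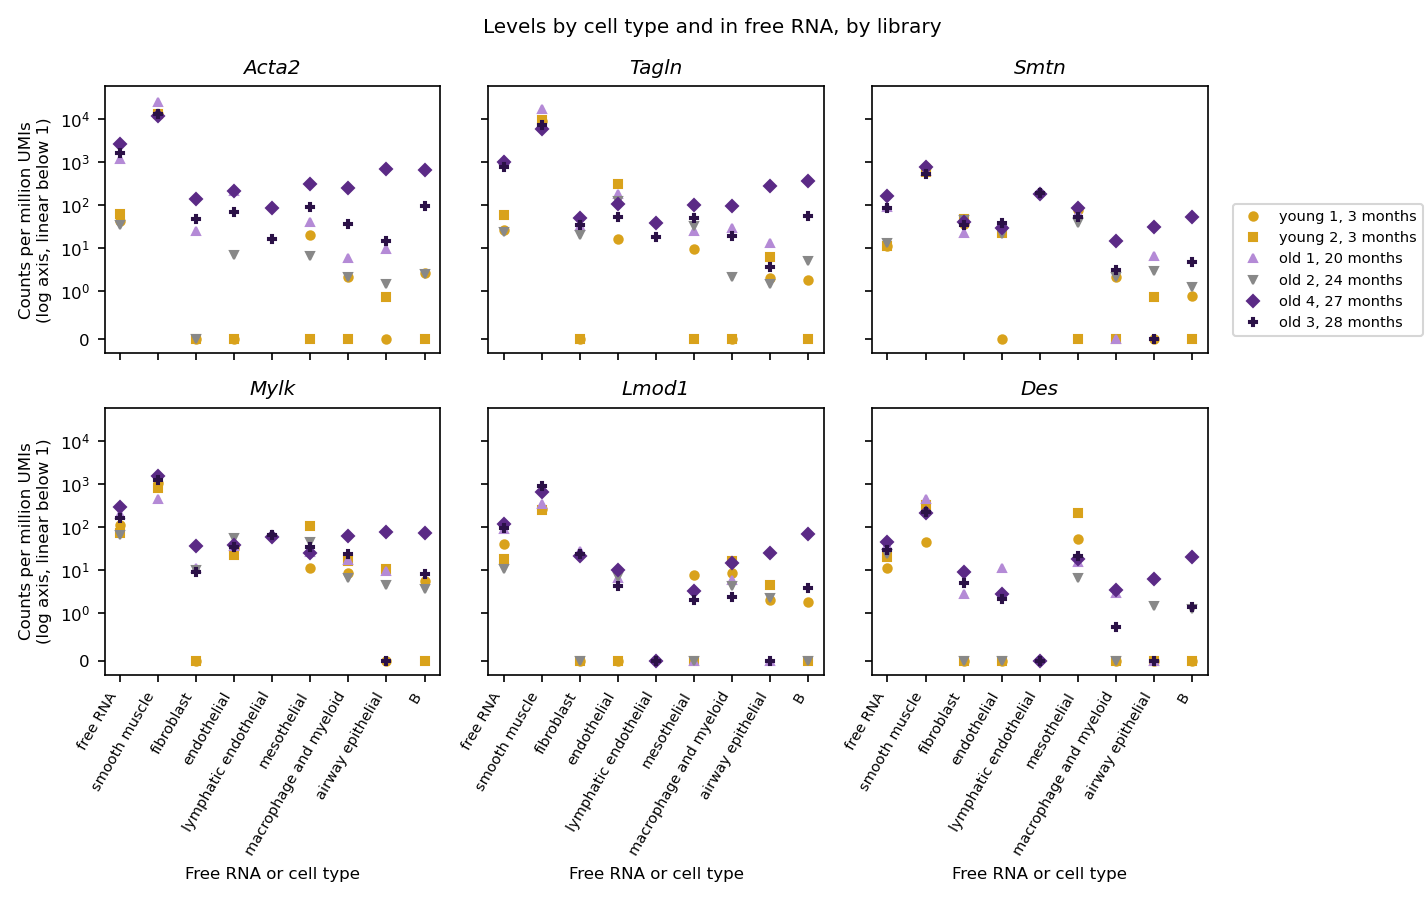
Levels of 6 contractile genes in free RNA and in 8 cell types, in CPM on an axis that is logarithmic above 1 and linear below, with 1 point per library. Acta2 and Tagln spread over several orders of magnitude among libraries outside SMC-like cells, whereas Smtn stays between 22.7 and 47.8 CPM in fibroblast-like cells of all 6 libraries and reaches 179 and 191 CPM in lymphatic endothelial-like cells.

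Smtn stood in other proportions to Acta2 in some other cells than in free RNA. In lymphatic EC-like cells Smtn was at 179 CPM (95% counting interval 118 to 261) at 27 months and at 191 CPM (152 to 237) at 28 months, the libraries with enough of these cells. It outnumbered Acta2 there, with 27 against 13 counts and 83 against 7 counts, while free RNA of the same libraries held 639 Smtn against 10108 Acta2 counts and 103 against 1954. Lmod1, Des and Myocd were at 0 in both. In fibroblast (FB)-like cells Smtn was at 37.9 and 47.8 CPM in the young libraries, from 3 and 1 counts, and at 22.7, 45.5, 40.8 and 35.5 CPM at 20, 24, 27 and 28 months, a narrow range beside that of Acta2, 0 to 143 CPM. Mesothelial-like cells of the first young library held 42 Smtn counts against 11 of Acta2. Mylk, which many non-muscle cells use, was found in EC-like cells of all 6 libraries at 22.8 to 56.2 CPM, and in lymphatic EC-like cells at 59.8 and 66.8 CPM. Free RNA held Mylk at 65.1 to 299 CPM over the 6 libraries, and its part in these levels was not tested.

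Tagln in EC-like cells came apart from Acta2 in some libraries. The second young library held 14 Tagln counts and 0 Acta2 counts in EC-like cells, but 13 of the 14 were in 1 of its 62 cells. At 24 months 18 Tagln counts and 1 Acta2 count were spread over 11 of 201 cells, at most 5 in a cell, so Tagln was 94.7% of both (exact binomial 95% interval 74.0 to 99.9%) where free RNA held 40.3%. At 20, 27 and 28 months Tagln was 46.0%, 32.5% and 42.4% of both in EC-like cells and 49.0%, 28.1% and 31.4% in free RNA. In 5 libraries, these among them, 1 of the EC-like cells with Tagln had a barcode that another library held too. Des and Myocd were found in mesothelial-like cells, Des at 6.61 to 218 CPM (the highest from 2 counts) and Myocd at 92.6 CPM from 14 counts at 24 months, where Acta2 gave 1 count in these cells. Lmod1 in FB-like cells at 28 months had 127 counts against 251 of Acta2, where free RNA had 111 against 1954.

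Between old and young, no contractile gene passed the test in FB-, EC- or macrophage (MΦ)-like cells. In FB-like cells edgeR called 0.0459% of 6540 genes (3 genes) and 0 of the 10, with 433 genes at an unadjusted p under 0.05 and 2 called by DESeq2. In EC-like cells it called 0% of 5883 genes (338 at an unadjusted p under 0.05, and 1 by DESeq2) and in MΦ-like cells 0% of 5925 (322, and 3 by DESeq2), with 0 of the 10 in both. Only 4, 4 and 1 of the 10 genes passed the filter on low counts in these types. Of the 10 genes, 8 in FB-, 7 in EC- and 3 in MΦ-like cells had no young count, and for these folds are bounds against the floor of 3 counts over both young libraries. Most of these bounds were under 1 and give no direction. In FB-like cells all but those of Acta2 and Tagln were, from 0.0648 (Actg2) to 0.763 (Lmod1). In EC-like cells all but those of Acta2 and Myh11 (1.10) were, from 0.0671 (Myocd) to 0.305 (Actg2). In MΦ-like cells Des was at 0.257 and Cnn1 at 1.21. Acta2 in EC- and FB-like cells and Tagln in FB- and MΦ-like cells passed the filter on low counts only through the old libraries. The 10 genes were tested whether or not they passed. In the pooled counts of the old libraries, Acta2 was at least 4.86-fold higher in EC-like cells (edgeR, adjusted p = 0.86) and at least 2.59-fold higher in FB-like cells. Tagln, pooled in the same way, was at least 1.35-fold higher in FB-like cells (edgeR, adjusted p = 0.695) and at least 6.85-fold higher in MΦ-like cells (edgeR, adjusted p = 0.81). These bounds do not hold for every old library. The 24-month library alone lay under the young floor in each of these cases, with 1 Acta2 count in EC-like and 0 in FB-like cells. Acta2 in FB-like cells was also under the floor at 20 months, from 9 counts. The bound of Acta2 in FB-like cells was 1.49-fold without the 27-month and 4.11-fold without the 28-month library, and that of Tagln in MΦ-like cells was 3.29-fold and 12.5-fold. Free RNA held 44.1 and 61.5 CPM of Acta2 in the young libraries and 35.0 CPM at 24 months, but 1205, 2642 and 1693 CPM at 20, 27 and 28 months. The part of free RNA in these differences was not tested. Tagln in EC-like cells, the only case with at least 10 counts in both groups, differed by -0.39 ± 0.86 (edgeR, adjusted p = 0.978). Its sign turned without the second young library (2.79), after thinning (1.34) and with doublets kept (0.11).

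In some libraries the composition of free RNA itself differed from that of SMC-like cells. In free RNA Myh11 counts were 1.33, 1.24 and 1.05 times those of Acta2 in both young libraries and at 24 months, whereas in the young SMC-like cells they were 0.141 and 0.220 times those of Acta2. At 27 and 28 months the ratio was 0.318 and 0.449 in free RNA and 0.447 and 0.425 in SMC-like cells. Myh11 and Acta2 thus stood in similar proportions in free RNA and SMC-like cells at 28 months and less so at 27 months. At 20 months the proportions were far apart (0.573 against 0.0669). For Tagln to Acta2 the young libraries had 0.614 and 0.969 in free RNA and 0.718 and 0.734 in SMC-like cells. The same ratio was 0.962 against 0.684 at 20 months, 0.390 against 0.498 at 27 months and 0.457 against 0.560 at 28 months.

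Over the 51 profiles of a library and a cell type, the genes with levels most like those of Acta2 were Sost (Pearson's r = 0.897 across profiles, over 13521 genes), Myl9 (0.881) and Tpm2 (0.869). Those most like Des were Sh3bgr (0.904), Tpm2 (0.859) and Rgs4 (0.859), and those most like Actg2 were Hspb7 (0.919), E030013I19Rik (0.900) and Scube3 (0.895). Tpm2 and Myl9 are themselves partner genes of the contractile programme. The profiles share libraries, depth and free RNA, and the correlations are a description. Exons of Tagln overlap Pcsk7 on the other strand, and exons of Des, Mylk and Smtn overlap lesser-known genes on the other strand. Use of strand in counting is not given in the sources used here, so the counts of these 4 genes are uncertain to that extent.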

How the data were processed

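Single cell RNA sequencing of proximal pulmonary arteries was analysed in 6 libraries. Per the labels and the methods of the study, the authors trimmed reads with Cutadapt and counted UMIs per gene and barcode with STARsolo on GRCm38.p6, and the deposited values are raw counts. Another of the study's young libraries was not used. Barcodes were kept as the report states, and of 15622 kept barcodes 301 were removed as doublets by scrublet scores, with its own threshold or, in 4 libraries where that marked too few, as the highest scores, at 0.8% for each 1000 barcodes. Counts were clustered with scanpy 1.11.5 (2000 variable genes, 40 components, 15 neighbours, Leiden resolution 1.0), and clusters with 40% or more of the 10 genes raised were clustered again. A marker counted as raised at 2-fold over the median of all clusters, with 20 CPM added to both, and a name needed more than 50% of its markers raised. The naming limits were set after the clusters were seen. Counts were summed per library and type, with at least 10 cells per library, and old was compared with young by edgeR 4.0.16 (TMM scaling, quasi-likelihood, Benjamini-Hochberg adjustment) over genes detected in at least 5% of cells in 3 libraries. DESeq2 1.42.0, other filters, scalings, clusterings and depths and leaving out each library were alternatives, of which 2 were added after seeing the data. Code was tested on simulated data. The members and gene lists were chosen with earlier results of these data known. Of the partner and modulated lists, the text names the 3 genes with the largest difference in each direction among those tested in which old and young levels were apart, with Srf, Myl9, Tpm2, Actb and Actg1 always given. Vim was named as well, after its values were seen. Library totals ranged from 6355125 to 50436562 UMIs. Each library is 1 mouse, so p-values measure the spread between libraries, while intervals of counts and shares (95%, exact Poisson or binomial) cover counting error only.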

Additional observations from a re-analysis of the deposited data

Results flagged for a closer look

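In 4 of 30 groups of 4 old libraries tested for a library far from the others, the library of 27 months was the one apart. Chance flags about 1 in 20 groups that are independent, but these 30 share the same 4 libraries, so that rate may not hold for them. Myh11 in FB-like cells was at 45.6 CPM there against 5.66 to 10.1 CPM in the other old libraries (gap over range 0.889). Mylk in FB-like cells was at 35.7 CPM against 9.26 to 11.3 CPM (0.922). Acta2 in MΦ-like cells was at 254 CPM against 2.15 to 37.8 CPM (0.858), and Myh11 in MΦ-like cells at 85.9 CPM against 0 to 8.79 CPM (0.898). Free RNA of this library held 839 CPM of Myh11, 299 CPM of Mylk and 2642 CPM of Acta2, and its part in these levels was not tested.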

How the results depend on the processing

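Of 180 alternative values of the 10 genes in SMC-like cells, 171 kept their direction and side of the threshold, 3 passed it and 6 turned. Tagln turned to -0.21 in cells of at most 2000 UMIs and to -0.23 without the 20-month library (up to 0.87 with another library left out), Smtn to -0.12 with library size only, -0.057 with cells thinned to 500 UMIs and -0.16 in cells of at most 2000 UMIs, and Mylk to -0.023 in those cells. The contractile genes called in SMC-like cells ranged from 0 to 3 when 1 library was left out, and all genes called from 0 to 54, with 54 without the 20-month, 8 without the 27-month and 5 without the 28-month library. All genes called in SMC-like cells were 1 with at least 1000 UMIs and 500 genes, 2 with library size only, 2 with DESeq2, 49 with no filter on low counts, 2 with filterByExpr, 6 with at least 3 cells per library and 1 in cells of at most 2000 UMIs, where the settings of 1000 UMIs and of 3 cells also bring in the 24-month library (4 old libraries). In FB-like cells they were 0 with at least 1000 UMIs, 10 with no filter, 0 after thinning and 0 to 7 with 1 library left out (1 without the first and 0 without the second young library, 7 without the 28-month library). In EC-like cells they were 1 with DESeq2 and 8 with no filter, 1 of them contractile (Acta2). In MΦ-like cells they were 3 with DESeq2, 36 with no filter, 1 of them contractile (Tagln), and 0 to 3 with 1 library left out (3 without the 24-month library). Tagln in EC-like cells turned from -0.39 to 0.11 with doublets kept, 0.026 with no filter, 1.34 after thinning and 2.79 without the second young library, where 13 of 14 Tagln counts lay in 1 cell (-1.37 without the first young library). With 1 library left out, the log2 difference of Acta2 to Actg2 ranged from -0.93 to -0.34, of Acta2 to Myh11 from -1.31 to 0.062 (0.025 without the 28-month library), of Cnn1 to Acta2 from -0.46 to 0.34 (0.041 without the first young library) and of Des to Acta2 from -0.51 to 2.37. The median difference in detection, old minus young, was 8.30 percentage points at 500 UMIs and 45.7 without thinning. The cause of these changes was not tested. No paired analysis was possible because the replicate numbers follow accession order and pair no mice. Depth limits the young SMC-like cells most, where 3 counts are 132 and 125 CPM.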
